A study of Caenorhabditis elegans with 3 samples.

Results

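The spp genes of Caenorhabditis elegans encode saposin-like proteins, and spp-1 to spp-10 were examined for binding by the transcription factor PQM-1. These are 10 genes chosen by name, of 31 annotated spp genes and of 19973 protein-coding genes on the nuclear chromosomes. All 10 were found in the annotation. Binding was mapped by ChIP-seq, the sequencing of DNA precipitated with an antibody to a chromatin protein, in whole L1 larvae (the first larval stage) of mixed sex. All samples belonged to 1 group of 3 biological replicates of strain OP201, whose labelled genotype is unc-119(tm4063) III; wgIs201. The wgIs201 insertion makes PQM-1 fused at its C terminus to GFP and FLAG, and its antibody target is labelled pqm-1. Binding by the tagged protein from the inserted transgene was thus mapped, every sample carried the same alleles, and no untagged or mutant group was compared. Signal from whole larvae is a mean over all cells, so binding in few cells and weak binding in many cannot be told apart.

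Saposin-like proteins are small, secreted or lysosomal proteins whose helices are held together by disulfide bridges and which bind lipids and membranes. In nematodes several of them, called caenopores, can open pores in bacterial membranes and act in the intestine, where worms digest and defend themselves against the bacteria they eat. PQM-1 is a zinc-finger factor of the intestine that has been linked, with the FOXO factor DAF-16, to stress responses and lifespan. Its sites are associated with TGATAAG, which is called the DAF-16-associated element. TGATAAG contains a GATA site, the kind of site read by the GATA factors that build the intestine. SPP-1 and SPP-5 are caenopores with activity against bacteria, spp-1 is known as a target of DAF-16, and spp-10 encodes a longer prosaposin-like protein.

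The authors deposited a relaxed list of 30000 peaks for each replicate and for the 3 replicates pooled, which includes background, and a shorter list of 682 peaks that passed a test of reproducibility between replicates, the irreproducible discovery rate (IDR). The IDR peaks were the 682 pooled peaks of highest signal, so membership followed pooled rank. Each gene was given a region made of its body and the 2000 bp upstream, and a peak was placed in it by its summit. Ranks by signal are within a list, with 1 the strongest. Read depth is not given in the files and is unknown. Each list of 30000 peaks touches most genes, so ranks and not the presence of a peak are compared.

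Strong pooled peaks lay at most of the listed genes. An IDR summit lay in the regions of 4 of the 10, spp-1, spp-2, spp-3 and spp-6, against 3.45% of all protein-coding genes. Counting the 2000 bp upstream alone, 3 of the 10 did, against 2.42% of all genes. Among the 1364 highest-signal pooled peaks, a list 2 times as long, 8 of 10 had a summit in the region, against 6.85% of all genes, the additions being spp-4, spp-5, spp-8 and spp-10. The same 8 were those with a peak anywhere in the pooled list, which is near the background of 75.3% of all genes, so no listed gene had weak pooled peaks alone. For spp-7 and spp-9 no pooled summit lay in the region. The regions of the listed genes were short, with a median of 2544.5 bp against 4027 bp for all genes. The 8 genes are not 8 separate sites. They rested on 7 distinct peaks, of which 4 lay in the regions of 2 or 3 listed genes, and neighbours in a cluster were counted with the same peaks.

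**Figure D1:**
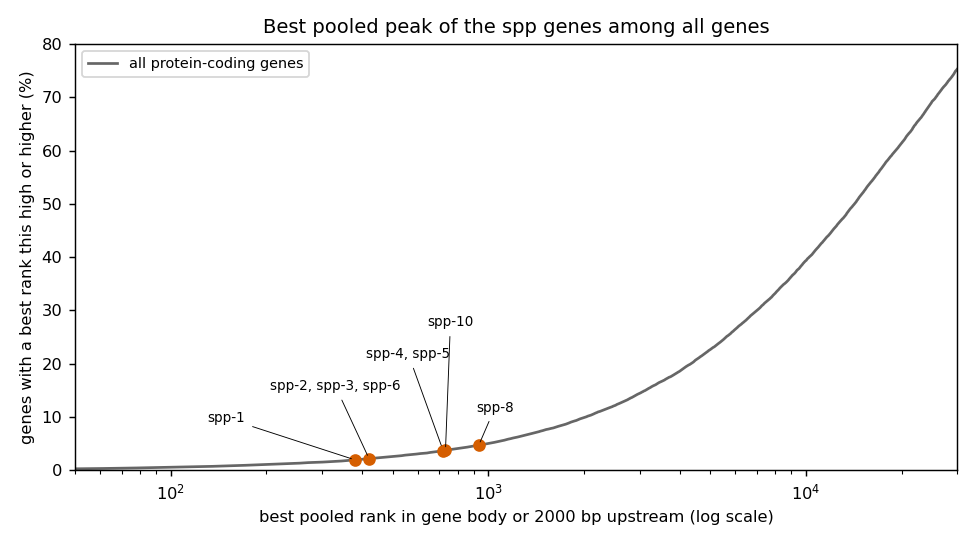
The curve gives the percentage of all protein-coding genes (y) whose best pooled peak in the gene body or 2000 bp upstream had the given rank or a higher one (x, log scale). The points are the 8 listed genes with a pooled peak, which sit between rank 380 at spp-1 and rank 933 at spp-8, within the first 4.67% of genes.

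By best pooled rank spp-1 stood first, at rank 380, with 385 genes of the genome ranked higher. The genes spp-2, spp-3 and spp-6 followed with 1 shared peak at rank 421, then spp-4 and spp-5 with a shared peak at rank 721, spp-10 at rank 733 and spp-8 at rank 933. Over the 15046 genes with a pooled peak the median best rank was 9435 and the quartiles were 4057 and 17222. The last IDR peak had a signal of 34.6, on the authors' caller's scale. Above it the spp-1 peak had a signal of 41.7, the spp-2 and spp-6 peak 40.5 and the spp-3 peak, the closest of these to the boundary, 37.2. Just below it the spp-5 peak had 34.0 and the spp-10 peak 33.8. The spp-5 and spp-10 peaks thus missed the IDR list by 39 and 51 ranks, and the count of 4 genes depends on where that line was drawn.

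The DNA under these peaks is printed for the sites that carry the account, to show where the GATA sites stand in them. Each is the WBcel235 (ce11) reference on the strand of the named gene, 5′ to 3′, with GATA words in capitals. The GATA words are AGATAA or AGATAG and TGATAA or TGATAG, on either strand. The longer TGATAAG contains TGATAA, and it reads as CTTATCA on the other strand. Bases annotated as untranslated, and any beyond them, were left out, which shortens the spp-1, spp-8 and spp-10 stretches. The short spp-1 exon site is the exception, since it touches the annotated 5' UTR of spp-1. For spp-1 the first line is the part of the peak upstream of the 5' end (chrIII:10355669-10355780) and the second a site of 27 bases within the first exon (chrIII:10355601-10355627), shown on the plus strand, which is opposite to the gene. The spp-2 and spp-6 line is on the strand of spp-6 (chrX:7316972-7317261), the spp-3 line is chrX:7315423-7315712 and the spp-5 line chrX:7320369-7320658, both on the minus strand, and the spp-8 and spp-10 lines are chrIV:8481435-8481663 and chrIV:8475279-8475566 on the plus strand.
spp-1 upstream: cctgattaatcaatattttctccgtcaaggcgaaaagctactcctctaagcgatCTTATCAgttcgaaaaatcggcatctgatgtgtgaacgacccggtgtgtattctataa
spp-1 exon site: gcggcggcacTGATAAGgaatcgaatc
spp-2 and spp-6: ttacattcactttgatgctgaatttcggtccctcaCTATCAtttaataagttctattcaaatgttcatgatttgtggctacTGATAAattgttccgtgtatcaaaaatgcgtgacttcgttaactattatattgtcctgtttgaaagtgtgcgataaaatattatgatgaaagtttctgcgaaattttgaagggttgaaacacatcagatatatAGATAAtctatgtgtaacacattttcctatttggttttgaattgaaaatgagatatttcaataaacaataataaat
spp-3: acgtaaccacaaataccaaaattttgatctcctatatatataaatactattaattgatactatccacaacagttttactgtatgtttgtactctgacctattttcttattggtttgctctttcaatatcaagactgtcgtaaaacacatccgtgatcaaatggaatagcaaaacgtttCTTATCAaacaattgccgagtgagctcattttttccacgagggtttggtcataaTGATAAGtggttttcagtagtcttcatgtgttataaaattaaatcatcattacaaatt
spp-5: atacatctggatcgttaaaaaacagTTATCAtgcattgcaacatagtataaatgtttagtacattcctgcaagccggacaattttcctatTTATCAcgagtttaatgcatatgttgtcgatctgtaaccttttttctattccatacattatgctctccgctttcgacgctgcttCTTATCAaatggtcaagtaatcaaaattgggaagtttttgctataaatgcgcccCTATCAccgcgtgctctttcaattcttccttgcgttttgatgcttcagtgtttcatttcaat
spp-8: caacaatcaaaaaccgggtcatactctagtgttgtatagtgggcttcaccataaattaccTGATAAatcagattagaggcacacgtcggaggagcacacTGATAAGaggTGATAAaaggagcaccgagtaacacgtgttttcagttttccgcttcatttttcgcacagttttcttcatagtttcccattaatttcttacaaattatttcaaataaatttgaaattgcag
spp-10: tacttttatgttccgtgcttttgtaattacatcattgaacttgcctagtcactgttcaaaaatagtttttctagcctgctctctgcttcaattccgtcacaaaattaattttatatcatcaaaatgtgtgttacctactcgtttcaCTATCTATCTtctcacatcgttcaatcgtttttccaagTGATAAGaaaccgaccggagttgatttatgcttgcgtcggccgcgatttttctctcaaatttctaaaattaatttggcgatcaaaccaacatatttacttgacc

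At spp-1 (chromosome III, 10355098 to 10355668, minus strand), the strongest pooled peak of the 10 listed genes sat on the start of the gene. Its summit lay 32 bp downstream of the annotated 5' end, in the 5' UTR, and no other protein-coding gene had it in its region. The peak ranked 141 in replicate 1 and 4556 in replicate 2, and replicate 3 had no peak in the region. A further replicate 1 peak, at rank 20357, lay 1918 bp upstream. The nearest replicate 3 summit was 2703 bp away. Replicate 1 thus ranked this peak far above the others, and a mean over 3 replicates cannot be given. The summits that were found agreed closely in place, at 38 and 22 bp downstream of the 5' end in replicates 1 and 2. The peak held TGATAAG in 2 places, centred 22 bp from the summit in the exon and 55 bp upstream of the 5' end, both on the strand opposite to the gene.

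The 5 neighbouring genes spp-3, spp-2, spp-6, spp-4 and spp-5 lie in that order within 5386 bp of chromosome X (7314969 to 7320354). All are on the minus strand except spp-6. Pooled summits stood beside each gene start along this cluster, with 1 peak for the divergent starts of spp-2 and spp-6 and 1 for each of the others. Their ranks were 553, 421, 1291 and 721 in the order along the chromosome, and neighbouring summits were 1549, 1609 and 1788 bp apart. In the 1291 highest-signal pooled peaks, 2 of 1273 runs of 4 consecutive summits spanned 4946 bp or less, of which this cluster was 1, and the median run spanned 195604 bp. The other was at mdl-1, a gene for a Mad-like basic helix-loop-helix factor, also on X. This comparison was chosen after the values were seen. Its rank limit, run length and span were all taken from this cluster, which therefore counts by construction. The count describes the cluster and does not test whether it is unusual.

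**Figure D2:**
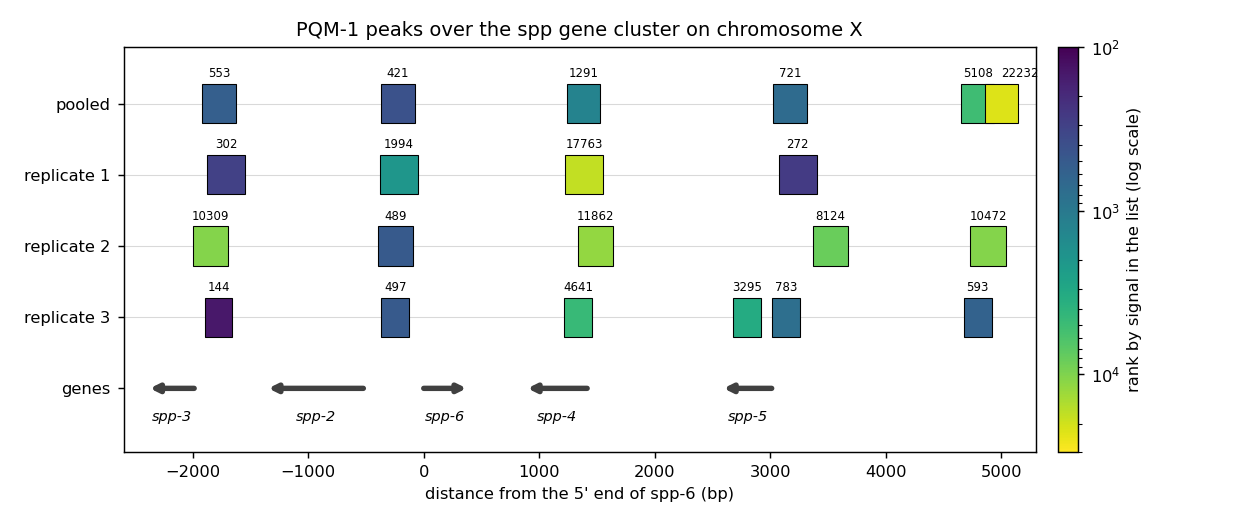
Peaks of the pooled list and of replicates 1 to 3 (boxes to scale, coloured and numbered by rank in their list, log colour scale) over the X cluster, by distance in bp from the 5' end of spp-6, with the 5 spp genes as arrows in the direction of transcription. The peak between spp-2 and spp-6 is present in every row with ranks of 421, 1994, 489 and 497, and replicate 2 has ranks of 10309, 11862 and 8124 at or near the starts of spp-3, spp-4 and spp-5.

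The peak between spp-2 and spp-6 had the smallest spread of ranks among the 4 strong peaks that all replicates shared. It ranked 1994, 489 and 497 in replicates 1, 2 and 3 (mean 993.3 ± 866.6, SD, n = 3). The replicate summits lay within 30 bp of each other. The 516 IDR peaks found in all 3 replicates had a median summit range of 58 bp and quartiles of 32 and 91 bp. The other strong peaks that all replicates shared spread over 133 bp at spp-3, 92 bp at spp-8 and 152 bp at spp-4. Each of these ranges was above that upper quartile. Between the divergent starts of spp-2 and spp-6, the pooled summit lay 299 bp upstream of spp-2 and 224 bp upstream of spp-6. It thus cannot be given to either gene. It also fell in the region of spp-3, 1764 bp upstream of it. This peak held no TGATAAG. Its GATA words stood away from the summit, the nearest 61 bp from it. Its sequence was 71.0% A or T against a median of 62.4% in all IDR peaks (quartiles 58.7% and 65.9%). The other strong peaks ranged from 57.9% at spp-1 to 69.0% at spp-3, whose peak held TGATAAG. The spp-4 peak, which also held none, was 58.6% A or T.

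The spp-3 peak was strong in 2 replicates and weak in the other. Its ranks were 302, 10309 and 144 in replicates 1, 2 and 3 (mean 3585 ± 5824, SD, n = 3), and the rank of 144 in replicate 3 was the best of any peak in the listed regions there. The pooled summit was 215 bp upstream of the 5' end, and it also lay in the region of spp-6, 1773 bp upstream of that gene. Its replicate summits spread over 133 bp. The peak held TGATAAG in 2 places on opposite strands, at 178 and 124 bp upstream of spp-3 and 37 and 91 bp from the summit.

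At spp-5, the caenopore gene at the end of the cluster, the pooled summit lay 160 bp upstream of the start. It ranked 272 in replicate 1 and 783 in replicate 3, and no peak of replicate 2 matched it, the nearest there being 510 bp upstream of the start at rank 8124. TGATAAG lay 33 bp from the summit, 127 bp upstream of the gene. The same peak lay in the region of spp-4, 1758 bp upstream. Further pooled peaks at ranks 5108 and 22232 lay 1785 and 1989 bp upstream of spp-5, in the body of the next gene, T08A9.13, and replicate 3 ranked the first of these 593. Replicate 3 also had a peak at rank 3295 in a coding exon of spp-5, 214 bp downstream of the start, that touched no pooled peak.

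The peak at spp-4 was the weakest of the 7. Its pooled rank was 1291, and it ranked 17763, 11862 and 4641 in replicates 1, 2 and 3 (mean 11422 ± 6572, SD, n = 3). The summit was 30 bp downstream of the 5' end, in a coding exon, and replicate summits spread over 152 bp. Its GATA words stood 84 bp or more from the pooled summit. The nearest TGATAAG of the region, 121 bp upstream of spp-4, was 151 bp from that summit and just outside the pooled peak. It lay inside the matching peaks of replicates 1 and 2, but not of replicate 3, and the replicate 2 summit was 74 bp upstream of spp-4. The better best rank of spp-4, 721, came from the peak at the start of spp-5.

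The genes spp-10 and spp-8 follow one another on the plus strand of chromosome IV (8477180 to 8480656 and 8481664 to 8483621). The spp-8 summit was 84 bp upstream of its start, with ranks of 3192, 8025 and 1486 in replicates 1, 2 and 3 (mean 4234 ± 3392, SD, n = 3). It was found in every replicate but in none of their 682 strongest. TGATAAG was centred 43 bp from this summit, 127 bp upstream of the gene, and TGATAA followed it after 3 bases. A weaker pooled peak at rank 12806 lay 1044 bp upstream of spp-8, which is the 3' UTR of spp-10 and also within reach of hlh-12, a gene for a basic helix-loop-helix factor inside spp-10. Replicate 2 alone had it, at rank 5048, and weak replicate 3 peaks lay in the body of spp-8 at ranks 18117 and 26202.

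The spp-10 peak was distant from its gene. The pooled summit lay 1758 bp upstream of the annotated start, at rank 733, and the nearest protein-coding 5' end was that of C28C12.11, at 1366 bp. It ranked 673 in replicate 1 and 3227 in replicate 2, and replicate 3 had none. A further replicate 1 peak, at rank 7498, lay 1257 bp upstream. TGATAAG lay 44 bp from the summit and 1714 bp upstream of spp-10, and 2 overlapping GATA words lay nearer, the closest 6 bp away. With an upstream reach of 1000 bp this peak was no longer assigned to spp-10, whose best pooled rank was then 12806.

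**Figure D3:**
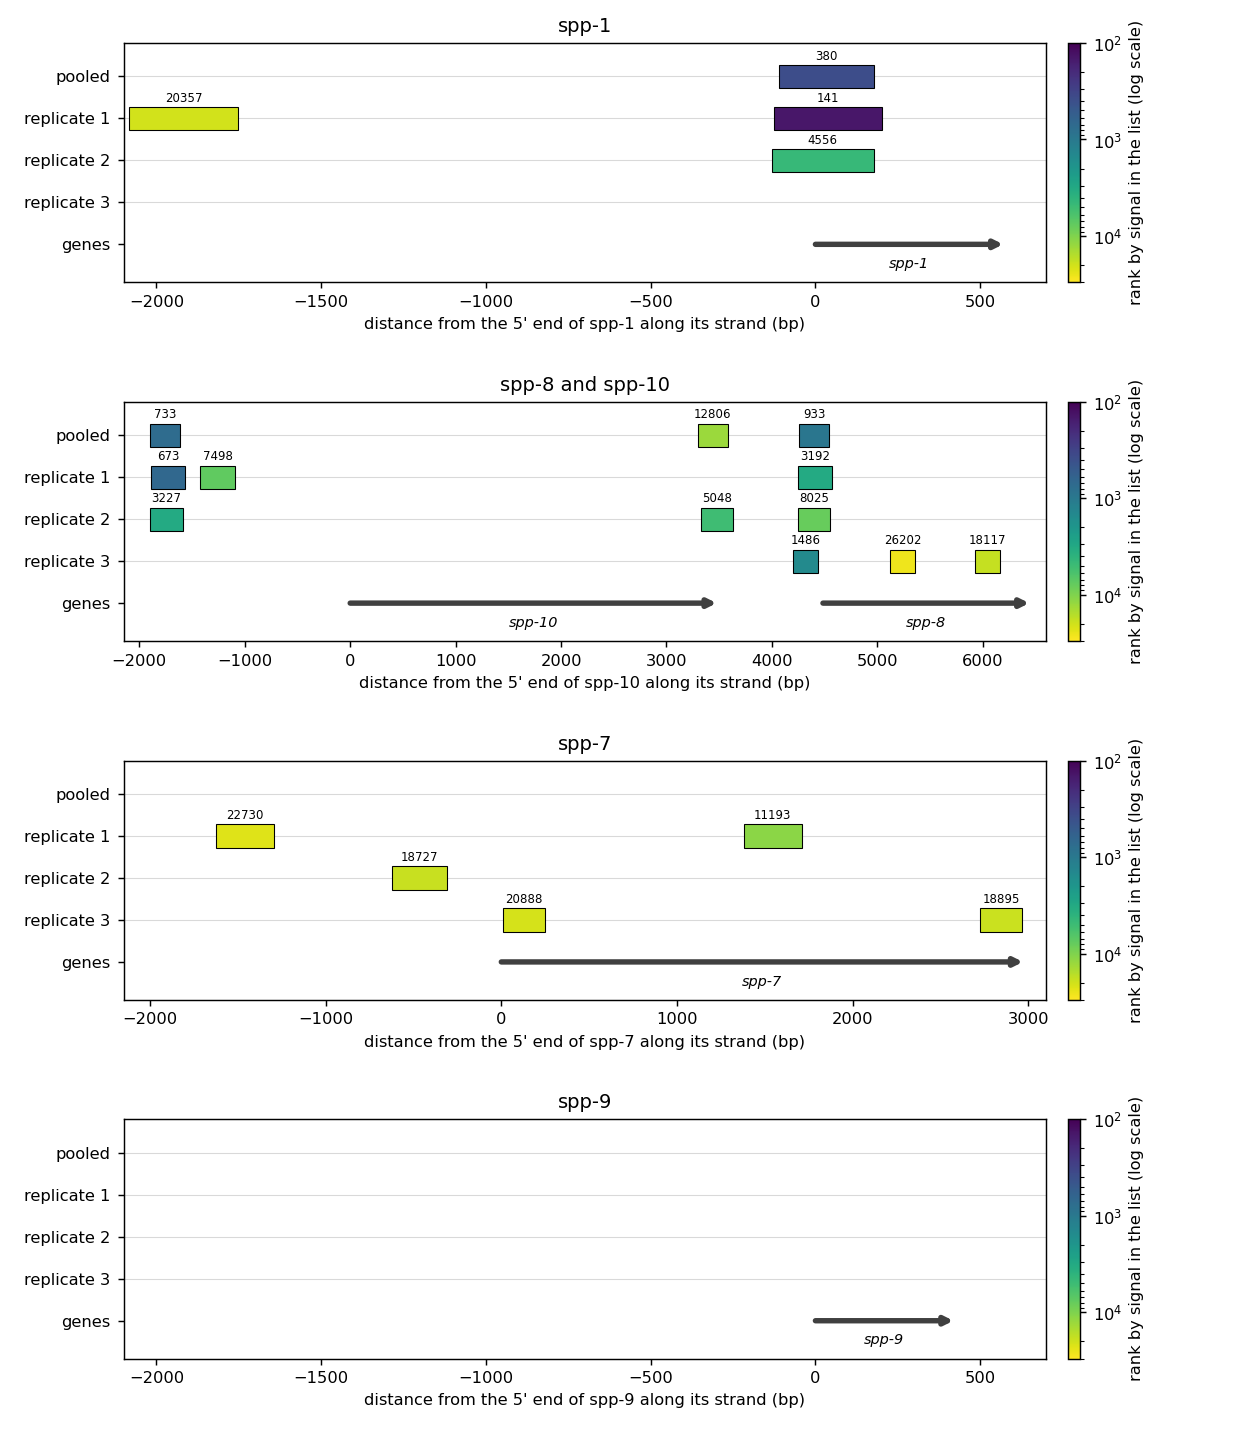
Peaks of the pooled list and of replicates 1 to 3 (boxes to scale, coloured and numbered by rank, log colour scale) at the listed genes outside the cluster, by distance in bp from the 5' end of the named gene along its strand. Genes other than listed spp genes are not drawn. The spp-1 and spp-8 peaks sit at the gene start, the spp-7 peaks fall at 5 different places, and spp-9 has none.

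For spp-7 (IV, 5412827 to 5415796) peaks were found in single replicates alone. Replicate 1 had ranks of 11193 and 22730, replicate 2 a rank of 18727, and replicate 3 ranks of 18895 and 20888, at 5 places that did not overlap. A summit in each of the 3 replicate regions thus did not mean a shared site here. TGATAAG was present in the region in 2 places, and the nearer of them to the gene start, 1036 bp upstream, was 2617 bp from the closest pooled summit. The other, in the gene body 2824 bp downstream of the start, was 1245 bp from one. That copy lay inside the replicate 3 peak of rank 18895, whose summit was 2844 bp downstream of the start.

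For spp-9 (X, 11487784 to 11488203) no peak of the pooled list or of any replicate lay in the region. The nearest IDR summit, ranked 394, was 4888 bp upstream, and the nearest pooled summit, ranked 2019, was 3150 bp upstream, both within the body of lin-14, a developmental timing gene. TGATAAG occurred 475 bp upstream of spp-9 and was 2675 bp from the nearest pooled summit. The region is 2420 bp long, shorter than those of all but 4.4% of genes.

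Across the replicates the family did not keep 1 order. A summit lay in the regions of 9, 9 and 7 of the 10 genes in replicates 1, 2 and 3, close to the background of 74%, 74.2% and 74.5% of all genes. Among the 682 strongest peaks of a replicate, 6 genes had one in replicate 1, against 3.53% of all genes, 3 in replicate 2, against 3.72%, and 4 in replicate 3, against 3.73%. The genes were spp-1, spp-3, spp-4, spp-5, spp-6 and spp-10 in replicate 1. They were spp-2, spp-3 and spp-6 in replicate 2, and spp-2, spp-3, spp-5 and spp-6 in replicate 3. These genes are not separate sites either. In replicate 1 spp-3 and spp-6 shared the peak of rank 302, and spp-4 and spp-5 that of rank 272. In replicate 2 all 3 genes rested on the peak of rank 489. In replicate 3 spp-3 and spp-6 shared the peak of rank 144. There spp-5 was counted through the peak of rank 593, 1785 bp upstream in the body of T08A9.13, while the peak at its start ranked 783. All 3 replicates placed a strong summit in the regions of spp-3 and spp-6, against 0.566% of all genes, but through different peaks of the cluster. Of the 7 distinct peaks, 4 were found in all 3 relaxed lists and the other 3 in 2 of them. Of the 3 that are IDR peaks, 2 were found in all 3 relaxed lists, against 75.7% of all IDR peaks, and 0 were in the 682 strongest of every replicate, against 14.7%, which 3 peaks cannot tell apart. A summit in every relaxed replicate list, strong or weak, was found for 7 genes, spp-2 to spp-8, against 48.8% of all genes. This count does not require a shared site, and at spp-5 and spp-7 no peak was shared by all 3 replicates.

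**Figure D4:**
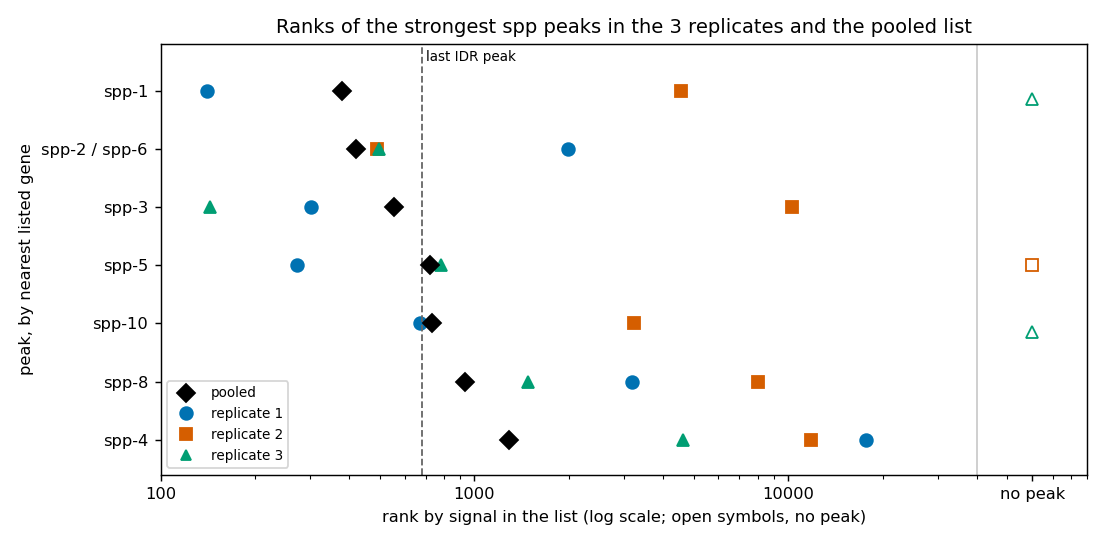
Rank by signal (x, log scale) of the 7 strongest pooled peaks of the listed genes (rows, by nearest listed gene) in the pooled list and in replicates 1, 2 and 3, with open symbols in the right-hand strip where a replicate had no matching peak and a dashed line at the last IDR peak. The spp-2 and spp-6 peak spans ranks of 489 to 1994, while the spp-3 peak spans 144 to 10309 and spp-1 runs from 141 in replicate 1 to no peak in replicate 3.

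Most of the strong peaks sat close to a gene start and held the DAF-16-associated element. The summit was within 300 bp of a listed 5' end at 6 of the 7 peaks, all but that of spp-10. No share over all strong pooled peaks stands beside this count, so closeness to a gene start is described and not shown to be particular to these genes. IDR peaks alone were taken as pairs of a gene and a summit in its region, in a different window chosen after the values were seen. From 300 bp before to 100 bp after the 5' end lay 4 of 6 pairs of the listed genes, against 31% of 743 pairs of all genes. The 6 pairs came from 3 peaks. TGATAAG lay within 50 bp of the summit at 5 of 7 (71.4%, 95% exact binomial interval 29 to 96.3), where it did at 38.1% of all IDR summits, 23.2% of the next 682 pooled summits and 1.76% of windows 500 bp downstream of the IDR summits. The interval treats peaks as independent and reaches below the IDR share, so a difference is not shown with 7 peaks. The peaks with it were those of spp-1, spp-3, spp-5, spp-8 and spp-10. The peaks of spp-2 with spp-6 and of spp-4 had no GATA word within 50 bp. TGTTTAC, the DAF-16 binding element, was near 0 of the 7, and near 1.61% of all IDR summits.

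**Figure D5:**
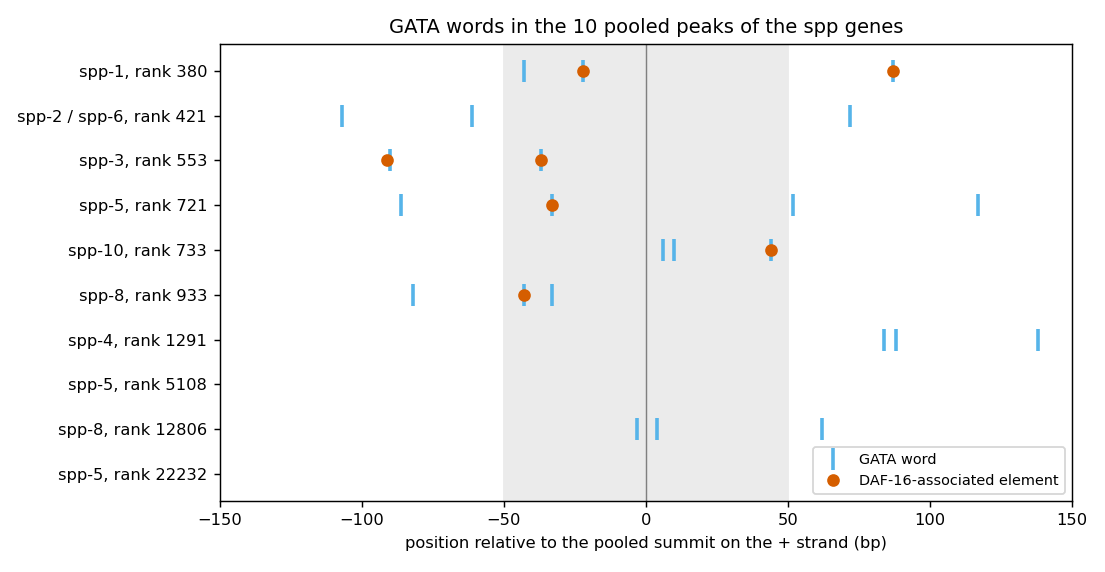
Positions of the GATA words (bars) and of the DAF-16-associated element (circles, each of which also contains a GATA word) relative to the pooled summit in bp, on the plus strand, for the 10 distinct pooled peaks in the regions of the listed genes, ordered by rank. The grey band marks 50 bp to each side of the summit, which holds an element at 5 peaks, all of rank 933 or stronger.

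In the promoter windows alone, from 250 bp before to 50 bp after the 5' end and without regard to peaks, 5 of the 10 listed genes held TGATAAG, against 9.19% of all protein-coding genes, and 7 held TGATAA, against 30.2%. Within 2000 bp upstream 9 of 10 held TGATAAG, against 33.3%. Clustered genes share sequence within 2000 bp upstream, so the genes in that count are not independent. The regions held 15 distinct copies of TGATAAG, of which 5 (33.3%) lay within 50 bp of a pooled summit, and 2 (13.3%) within 50 bp of an IDR summit. Of the 18686 copies in the whole nuclear genome, 9.11% and 1.74% did. The genome shares include copies outside the regions of any gene. They are not a like background, and an excess at the listed genes is not shown. The element also stood in places without a pooled peak, as at spp-7 and spp-9 and 781 and 1068 bp upstream of spp-4.

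The rest of the family and other defence genes were read the same way. An IDR summit lay in the regions of 4 of the 10 listed genes, against 1 of the 21 other spp genes. The other gene was spp-17, where the summit lay 1278 bp upstream (chromosome I, 1014982 to 1015271) at rank 21, ahead of every listed gene, with ranks of 13, 111 and 119 in replicates 1, 2 and 3. The peak also lay in the region of madf-6, a MADF-domain gene, and cannot be given to 1 of them. Of the lysozyme genes lys-1 to lys-10, which encode enzymes that break bacterial walls, lys-2 and lys-8 had an IDR summit. Of the other families, none of the 6 invertebrate-type lysozyme genes ilys-1 to ilys-6 and none of the 6 defensin-like genes abf-1 to abf-6 did. With 3.45% of all genes called, 0 of 6 and 1 of 21 are near the background, and no difference between these families is shown.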

How the data were processed

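PQM-1 ChIP-seq peak lists of 3 biological replicates, numbered as in the labels, were analysed on ce11. Per the README records deposited with the samples, peak calling used the alignments of a replicate, or of all 3 together, with 1 control, which was not analysed here, and the IDR list came from the resulting lists. The sources used here do not name the caller, the aligner or the IDR threshold. The signal of each peak in the deposited lists is the authors' caller's own value, on a scale not shared between lists, and was used to rank peaks within each list, with ties given the higher rank (7281 of 30000 peaks of replicate 2 were tied, 3729 of replicate 3, 421 of replicate 1). The ce10 lists were not used here.

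Genes came from Ensembl release 115, and sequence from WBcel235, the same assembly as ce11. No peak ended beyond its reference chromosome. A replicate peak matched a pooled or IDR peak when it covered at least 50% of it. Distances run from the outermost annotated 5' end of the gene. Words were searched on both strands. Depth is unknown, and intervals cover counting of peaks only. No test over the listed genes was made: counts stand beside the share of all genes. The named genes were all 10 listed genes, other genes sharing their IDR peaks, and other spp genes with an IDR peak. Outside this rule, mdl-1, T08A9.13, hlh-12, C28C12.11, madf-6 and lin-14 were named as neighbours or as the place of a peak, and lys-2 and lys-8 as the called members of their list, after their values were seen. The members, lists and words were chosen with earlier results of these data known. The alternatives were other upstream reaches, overlap rules, list lengths, word windows, nearest-gene assignment and leaving out each replicate. Placement, matching and word functions were tested on simulated data. The software was pandas 2.3.3, numpy 2.4.6, matplotlib 3.10.9 and SciPy 1.17.1 under Python 3.11.15.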

Additional observations from a re-analysis of the deposited data

How the results depend on the processing

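No paired analysis was possible because all replicates form 1 group. Of 33 alternatives for counts, 27 stayed within 1.5 times the reported count. With the first 341 peaks of the IDR list 0 listed genes had a peak in place of 4, and with the 1364 highest pooled peaks 8 did. With replicate lists as long as the IDR list, 0 of the IDR peaks at listed genes were found in all 3 replicates in place of 2. With 25 bp to each side of the summit 1 IDR peak held TGATAAG in place of 2. With 1000 bp upstream, and with 500 bp, 1 pooled peak was shared by listed genes in place of 5. Leaving out 1 replicate gave 7 to 9 genes with a peak in each remaining replicate, the 9 without replicate 3, and 2 to 3 IDR peaks found in both. By the nearest 5' end alone 4 listed genes had an IDR peak, but with spp-9, from the peak 4888 bp away, in place of spp-2. Unknown depth limits what the absence of a replicate peak shows.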
